A study of Homo sapiens with 6 samples.

Results

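The Rab GTPases of vesicle trafficking were examined in A549, an epithelial cell line from a human lung carcinoma, after depletion of BCLAF1, a nuclear factor known from transcription and splicing. Members were the protein-coding genes whose symbol is RAB followed by a number and at most a letter and a digit, less a gene not analysed here. The rule used names only, and it gave 60 of the 29122 genes in the count table. BCLAF1-depleted cells (3 libraries) stably carried a lentiviral short hairpin RNA against BCLAF1, and control cells (3 libraries) carried one against firefly luciferase, which human cells lack. The sample titles of the depleted libraries write "si", and the treatment protocol describing hairpins was followed here. By the series title, the study concerns MED23, senescence and autophagy in lung cancer cells. Neither the number of hairpin sequences nor whether cells were cloned is stated, and the replicates are not said to be separate cultures. P-values therefore reflect differences among 3 libraries a group that may be purely technical.

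Rab proteins are small GTPases that mark membranes of the cell by switching between a GDP-bound and a GTP-bound state. Guanine nucleotide exchange factors (GEFs) switch them on, GTPase-activating proteins (GAPs) switch them off, and effectors recruited by the active form tether, move or fuse vesicles. Each Rab works at its own compartments, from the endoplasmic reticulum (ER) and Golgi to endosomes, lysosome-related organelles, secretory granules and the cilium, and many have close paralogues that overlap in function.

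Libraries held 33409158 to 40820922 counts in BCLAF1-depleted cells and 41098232 to 43928927 counts in control cells. Levels compared between libraries are CPM, counts relative to library size and scaled by TMM factors, and levels compared between genes are the authors' FPKM, which divide by gene length and are not TMM-scaled. BCLAF1 had 39.0, 35.7 and 53.1 CPM in BCLAF1-depleted libraries 1 to 3, against 211, 199 and 203 CPM in control libraries 1 to 3. Its level was 4.80-fold lower (log2 fold change -2.26 ± 0.16 SE, edgeR quasi-likelihood adjusted p = 2.31e-05). Of 6 epithelial markers, KRT8, KRT18 and KRT7 were abundant and KRT19 was near 0, and the 6 summed to 34500 to 41900 CPM in BCLAF1-depleted and 32600 to 34300 CPM in control libraries. Markers of blood, endothelial and stromal cells summed to 5.87 to 6.22 CPM in BCLAF1-depleted and 5.29 to 7.87 CPM in control libraries over the 8 of 9 with a row, none above 3.47 CPM. BCLAF1-depleted library 3 had 19.3% of its counts on mitochondrially encoded genes, against 10.5 to 11.4% in the other 5. On the first principal component, which held 68.3% of the variance, BCLAF1-depleted library 1 lay between the control libraries and the other two depleted ones.

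Across the 60 Rab genes, 49 had enough counts to be tested and 14 passed an adjusted p of 0.05. Of these, 5 were higher after BCLAF1 depletion (RAB39B, RAB13, RAB32, RAB4B and RAB5C) and 9 were lower (RAB20, RAB23, RAB43, RAB8B, RAB5B, RAB31, RAB29, RAB5A and RAB4A). The share called, 28.6% of the tested members, stood below the 35.8% of all 15907 tested genes that passed, of which 17.8% were higher and 18.0% lower. The median log2 fold change of the tested Rab genes was -0.06, beside 0.02 for all tested genes. CPM of the groups did not overlap for 20 of 49 Rab genes (40.8%), beside 51.9% of all tested genes. Without control library 1, 2 or 3, Rab genes called higher numbered 2, 2 and 3 and those called lower 4 each time, while 18.1, 18.1 and 19.7% of all tested genes passed. Without BCLAF1-depleted library 1, 2 or 3, 6, 2 and 3 were higher and 13, 7 and 11 lower, while 48.8, 25.0 and 30.8% of all tested genes passed. With scaling by library totals in place of TMM, 2 Rab genes were higher and 12 lower, while 31.1% of all tested genes passed, 8.07% higher and 23.0% lower. In bulk RNA, fewer cells of a state and less RNA per cell cannot be told apart.

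**Figure D1:**
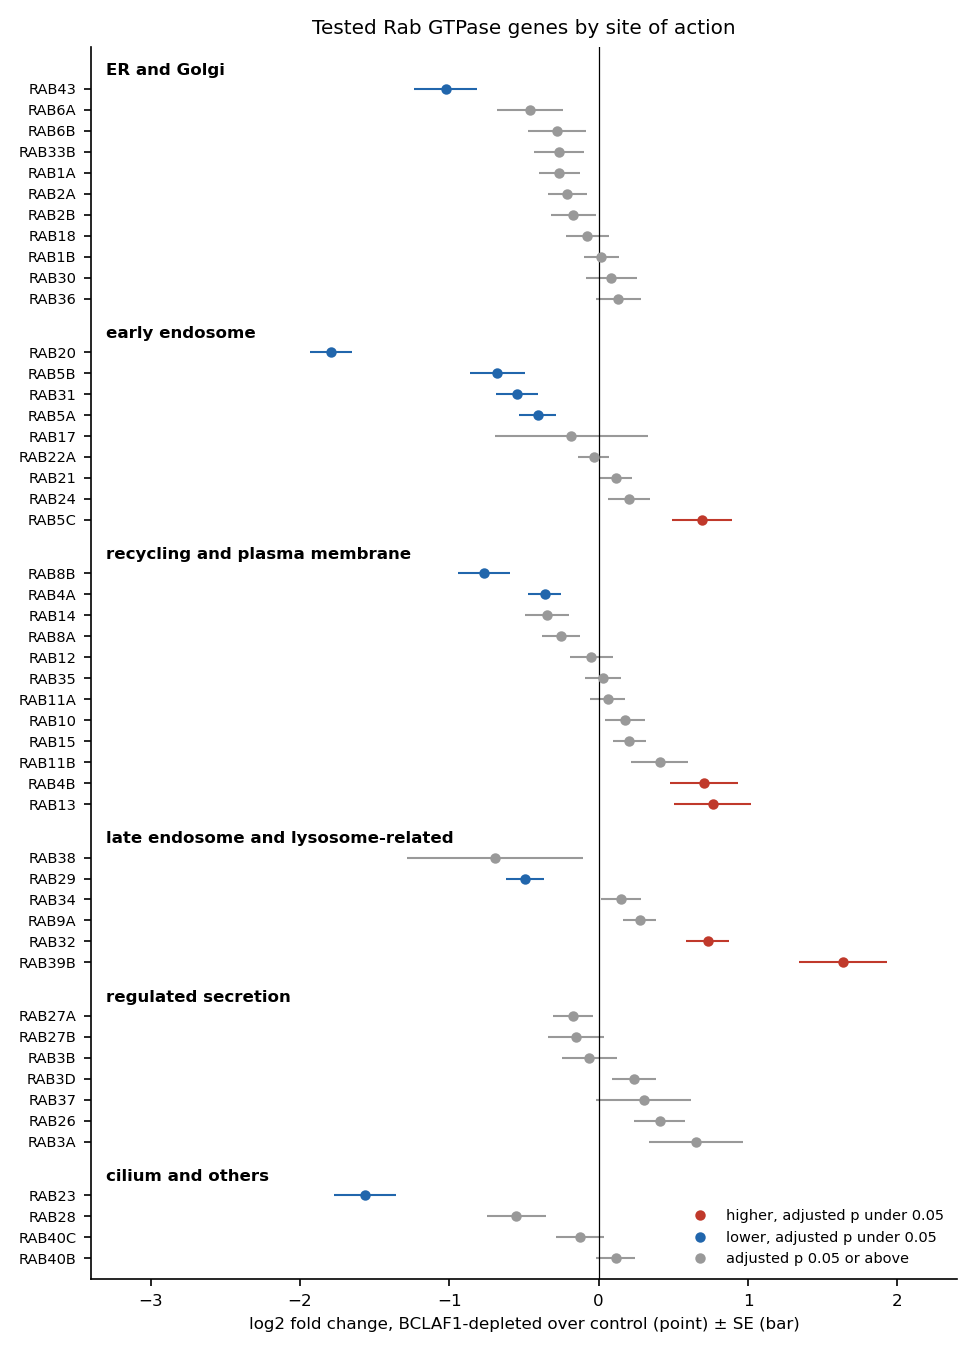
Log2 fold change of BCLAF1-depleted over control (points) with its SE (bars) for the 49 tested Rab genes, grouped by site of action; red marks genes higher and blue genes lower at an adjusted p under 0.05. RAB20 and RAB23 lie farthest left, RAB39B farthest right, and no gene of the regulated secretion group is coloured.

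Calls are given by site of action, to be read beside the 17.8% of all tested genes that were higher and the 18.0% that were lower. Among the early endosome Rabs 1 of 9 tested genes was higher and 4 were lower, and among the recycling and plasma membrane Rabs 2 of 12 were higher and 2 lower. Among late endosome and lysosome-related Rabs 2 of 6 were higher and 1 lower. The ER and Golgi Rabs had 1 of 11 called, lower, the cilium and other group 1 of 4, lower, and the regulated secretion group none of 7. Differences between these groups were not tested. The assignment to sites is from general knowledge, and several Rabs act at more than one.

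Promoters are shown for the RAB5 and RAB4 paralogues, whose members were called in opposite directions. Each line gives the 250 bases before the RefSeq start on GRCh38.p14, 5′ to 3′ on the gene's strand, with GC boxes (GGGCGG or CCGCCC) and CCAAT boxes (CCAAT or ATTGG) in capitals. The windows are chr3:19946847-19947096 (plus strand) for RAB5A, chr12:55973699-55973948 (plus) for RAB5B, chr17:42154990-42155239 (minus) for RAB5C, chr1:229270861-229271110 (plus) for RAB4A and chr19:40777997-40778246 (plus) for RAB4B.
RAB5A: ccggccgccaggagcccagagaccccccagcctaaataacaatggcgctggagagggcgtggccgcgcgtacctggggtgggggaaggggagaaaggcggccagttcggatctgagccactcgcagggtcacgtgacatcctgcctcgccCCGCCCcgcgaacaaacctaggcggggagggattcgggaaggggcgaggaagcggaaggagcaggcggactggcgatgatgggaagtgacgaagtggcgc
RAB5B: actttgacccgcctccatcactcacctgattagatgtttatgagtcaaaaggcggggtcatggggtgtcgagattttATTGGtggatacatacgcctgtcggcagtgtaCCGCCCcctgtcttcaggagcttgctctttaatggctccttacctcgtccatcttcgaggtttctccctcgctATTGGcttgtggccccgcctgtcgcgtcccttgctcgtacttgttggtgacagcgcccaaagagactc
RAB5C: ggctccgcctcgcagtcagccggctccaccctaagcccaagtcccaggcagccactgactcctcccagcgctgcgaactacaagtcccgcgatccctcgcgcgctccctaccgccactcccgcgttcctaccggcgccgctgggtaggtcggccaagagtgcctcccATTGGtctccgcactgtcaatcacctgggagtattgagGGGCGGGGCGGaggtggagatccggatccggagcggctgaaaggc
RAB4A: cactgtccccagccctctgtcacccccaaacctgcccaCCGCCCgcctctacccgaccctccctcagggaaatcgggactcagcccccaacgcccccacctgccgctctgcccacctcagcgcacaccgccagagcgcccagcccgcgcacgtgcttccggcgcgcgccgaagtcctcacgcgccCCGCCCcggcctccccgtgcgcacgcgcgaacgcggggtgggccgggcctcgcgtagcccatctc
RAB4B: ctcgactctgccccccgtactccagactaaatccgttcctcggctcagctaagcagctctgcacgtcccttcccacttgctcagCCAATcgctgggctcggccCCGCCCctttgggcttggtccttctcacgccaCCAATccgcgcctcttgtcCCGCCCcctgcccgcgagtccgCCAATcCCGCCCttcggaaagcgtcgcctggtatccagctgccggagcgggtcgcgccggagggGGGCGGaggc
RAB5A had 1 GC box and no CCAAT box, RAB5B 1 GC box and 2 CCAAT boxes, and RAB5C 2 overlapping GC boxes and 1 CCAAT box. RAB4A had 2 GC boxes and no CCAAT box, and RAB4B had 4 GC boxes and 3 CCAAT boxes. RefSeq promoters were matched for 47 of the 60 members. A GC box on either strand was present in 37 of the 47 (78.7%), beside 42.6% of all 35116 promoters of the same length, and a CCAAT box in 12 (25.5%), beside 32.0%. TATAAA or TTTATA was present in 3 of the 47 (6.38%), beside 10.7%. All 3 were promoters of genes too low to test. GC boxes stood in 4 of 4 matched promoters of genes called higher, 7 of 8 of genes called lower and 22 of 26 of genes not past the threshold. Among genes too low to test they stood in 4 of 9 (44.4%), close to the 42.6% of all promoters. Those 35116 promoters were not limited to genes expressed in these cells, so the excess cannot be read as a trait of Rab genes. These matches describe letters in the window only. The RAB4B window also holds the annotated start of the same-strand RAB4B-EGLN2 (chr19:40778242). CTD-2132N18.3, on the strand of RAB5C, starts just downstream of the RAB5C window (chr17:42154916). Neither of these rows, described below, was called higher, so the windows are not particular to rows that rose.

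The early endosome held the strongest fall and a split between paralogues. RAB20 (ENSG00000139832.4; chr13:110523066-110561733, minus strand), which acts on early endosomes and phagosomes, had 3.11, 3.46 and 3.14 CPM in BCLAF1-depleted libraries 1 to 3, against 11.1, 10.9 and 11.6 CPM in control libraries 1 to 3. The groups lay far apart, and the libraries within each were close. RAB20 was 3.46-fold lower (log2 fold change -1.79 ± 0.14, edgeR quasi-likelihood adjusted p = 3.62e-05). It passed the threshold in all 18 alternative analyses, with log2 fold changes from -2.23 to -1.60.

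RAB5 proteins govern the entry of endocytosed cargo into early endosomes and the fusion of these endosomes with each other, and the 3 paralogues did not move together. RAB5A (ENSG00000144566.9; chr3:19947079-19985175, plus strand) had 53.9, 43.4 and 47.2 CPM in BCLAF1-depleted libraries 1 to 3, against 60.8, 62.1 and 68.6 CPM in control libraries 1 to 3. Every depleted library was below every control, and the log2 fold change was -0.41 ± 0.12 (edgeR quasi-likelihood adjusted p = 0.0283). RAB5B (ENSG00000111540.14; chr12:55973913-55996683, plus strand) had 26.8, 15.0 and 22.7 CPM in BCLAF1-depleted libraries, against 33.8, 35.3 and 34.0 CPM in control libraries. Its groups did not overlap either, depleted library 2 was lowest, and the log2 fold change was -0.68 ± 0.18 (edgeR adjusted p = 0.0186). RAB5C (ENSG00000108774.13; chr17:42124976-42155044, minus strand) had 76.9, 117 and 133 CPM in BCLAF1-depleted libraries, against 59.6, 62.0 and 80.7 CPM in control libraries. Depleted library 1 lay below control library 3, so the groups overlapped, while depleted libraries 2 and 3 were above every control. The log2 fold change of RAB5C was 0.69 ± 0.20 (edgeR adjusted p = 0.024).

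The RAB5C count is tied to a neighbouring row. CTD-2132N18.3 (ENSG00000267261.4; chr17:42119674-42154916, minus strand), a protein-coding gene on the same strand, shares 28.8% of RAB5C's exon bases. It had 103, 67.0 and 82.6 CPM in BCLAF1-depleted libraries, against 124, 131 and 130.5 CPM in control libraries. It was lower in each depleted library than in every control (log2 fold change -0.61 ± 0.16, edgeR adjusted p = 0.0155), opposite in sign to RAB5C. The sum of the 2 rows was 180.3, 184 and 216 CPM in BCLAF1-depleted libraries and 184, 193 and 211 CPM in control libraries, and these ranges overlap (means 193 ± 19.6 and 196 ± 14.1 CPM, SD, n = 3). How reads in shared exons were divided was not stated by the labels, so the rise of the RAB5C row is uncertain as a change of RAB5C transcript. GENCODE also names 2 RAB5C pseudogenes.

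The RAB5 calls were close to the threshold. Without control library 1, 2 or 3, RAB5A had adjusted p-values of 0.0797, 0.0896 and 0.117 and RAB5B of 0.0525, 0.0606 and 0.0583, with log2 fold changes of -0.45, -0.43 and -0.36 for RAB5A and -0.69, -0.66 and -0.69 for RAB5B. RAB5A also missed the threshold without BCLAF1-depleted library 2 (-0.34, adjusted p = 0.0684). RAB5C missed it without BCLAF1-depleted library 2 (0.64, adjusted p = 0.0826) or 3 (0.52, adjusted p = 0.0752), without control library 1 (0.61, adjusted p = 0.097) or 2 (0.63, adjusted p = 0.0925), with scaling by library totals (0.43, adjusted p = 0.0811) and with the length and GC trend removed (0.46, adjusted p = 0.069).

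As a share of the summed FPKM of the 3 RAB5 genes, RAB5C made up 60.5, 75.4 and 75.3% in BCLAF1-depleted libraries, against 50.8, 51.1 and 55.9% in control libraries. RAB5A made up 32.0, 21.2 and 20.2% in BCLAF1-depleted libraries, against 39.1, 38.7 and 35.8% in control libraries. RAB5B made up 7.45, 3.41 and 4.53% in BCLAF1-depleted libraries, against 10.1, 10.3 and 8.31% in control libraries. None of these shares overlapped between groups, and depleted library 1 was nearest to the controls each time. The exact two-sided permutation p was 0.1 for each share, the smallest that 3 against 3 libraries allow, and the trio was chosen after its values were seen. The summed FPKM of the trio was 60.04, 63.07 and 63.8 in BCLAF1-depleted libraries and 59.02, 60.94 and 73.42 in control libraries, which overlap. The exon overlap described for RAB5C touches these shares too.

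RAB31 (ENSG00000168461.11; chr18:9708165-9862551, plus strand), which carries cargo between the trans-Golgi network and endosomes, had 75.8, 60.5 and 52.8 CPM in BCLAF1-depleted libraries, against 92.1, 91.7 and 92.2 CPM in control libraries. The controls were nearly equal, and every depleted library was below them. The log2 fold change of RAB31 was -0.55 ± 0.14 (edgeR quasi-likelihood adjusted p = 0.0158). Without control library 1, 2 or 3 or BCLAF1-depleted library 2, its adjusted p was 0.0603, 0.06, 0.0572 or 0.0502, at log2 fold changes of -0.55, -0.55, -0.55 and -0.52. Its paralogue RAB22A, which sorts cargo from early endosomes for recycling, had 42.1, 40.4 and 42.9 CPM in BCLAF1-depleted libraries, against 42.1, 43.1 and 43.2 CPM in control libraries. These values overlap, and RAB22A did not pass the threshold. The other members of the group that did not pass were RAB17, RAB21 and RAB24, known from polarized sorting, integrin traffic and autophagy. RAB21, named after its values were seen (log2 fold change 0.11, edgeR adjusted p = 0.442), passed with the length and GC trend removed (0.38, adjusted p = 0.0204), also without BCLAF1-depleted library 1 (0.39, adjusted p = 0.00819), but was at -0.11 with scaling by library totals (adjusted p = 0.613).

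**Figure D2:**
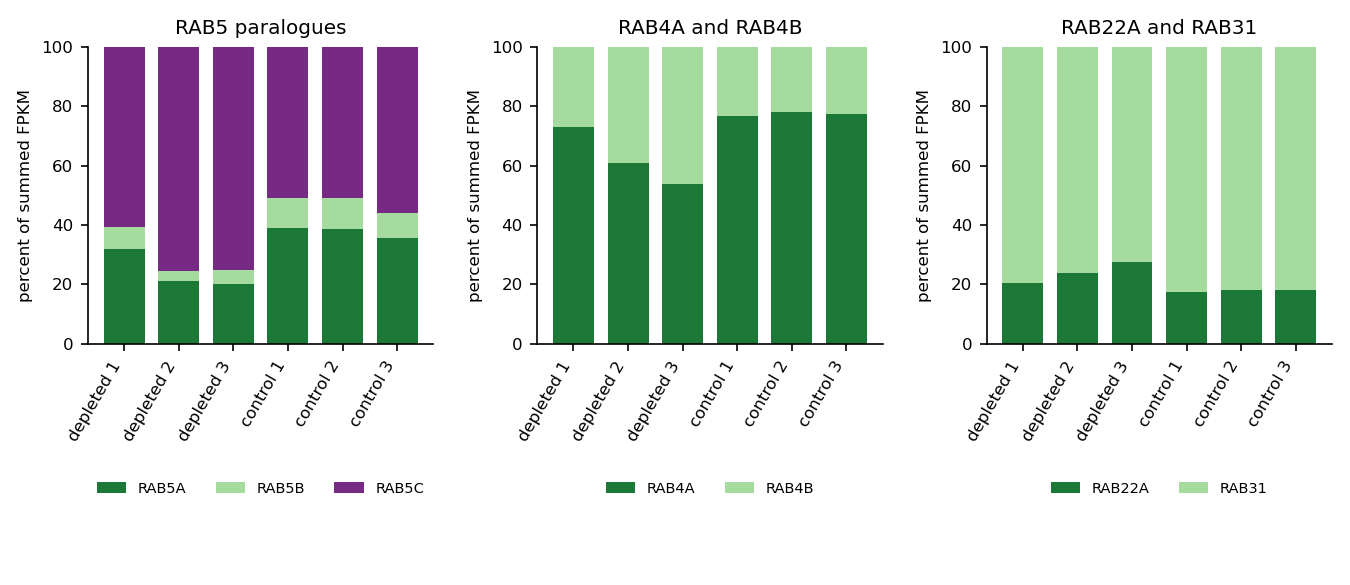
Stacked bars give each gene's percent of the summed FPKM of its paralogues, for the 3 BCLAF1-depleted libraries and then the 3 control libraries. RAB5C takes 60.5 to 75.4% in BCLAF1-depleted libraries and 50.8 to 55.9% in control libraries, RAB4A a smaller share after depletion and RAB22A a larger one.

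In the recycling and plasma membrane group, RAB4A and RAB4B were called in opposite directions. Both direct fast recycling from early endosomes to the plasma membrane. RAB4A (ENSG00000168118.10; chr1:229271062-229305894, plus strand) had 40.05, 38.2 and 35.8 CPM in BCLAF1-depleted libraries, against 48.1, 51.1 and 47.0 CPM in control libraries. The groups did not overlap, and the log2 fold change was -0.36 ± 0.11 (edgeR quasi-likelihood adjusted p = 0.0296). RAB4B (ENSG00000167578.15; chr19:40778216-40796938, plus strand) had 7.53, 12.5 and 15.7 CPM in BCLAF1-depleted libraries, against 7.49, 7.33 and 7.03 CPM in control libraries. Depleted library 1 was level with the highest control, while libraries 2 and 3 were well above (log2 fold change 0.71 ± 0.23, edgeR adjusted p = 0.0351).

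Both RAB4 calls rest on few libraries and on rows that share exons. RAB4A missed the threshold without control library 1, 2 or 3 (log2 fold changes -0.37, -0.33 and -0.39, adjusted p = 0.108, 0.144 and 0.0765), and SPHAR on the same strand shares 19.6% of its exon bases. RAB4B missed it without any 1 control library (0.72, 0.71 and 0.68, adjusted p = 0.0859, 0.0921 and 0.112) and without BCLAF1-depleted library 2 (0.67, adjusted p = 0.104) or 3 (0.45, adjusted p = 0.122). It also missed it with scaling by library totals (0.44, adjusted p = 0.117), with the length and GC trend removed (0.60, adjusted p = 0.0521) and by limma-voom (0.64, adjusted p = 0.0543). The readthrough genes MIA-RAB4B and RAB4B-EGLN2 share 25.7 and 27.4% of RAB4B's exon bases and did not pass (log2 fold changes -0.14 and -0.08, edgeR adjusted p = 0.591 and 0.665). Summed over the 3 rows the level was 34.4, 43.8 and 40.6 CPM in BCLAF1-depleted libraries and 37.2, 35.8 and 36.8 CPM in control libraries, which overlap.

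RAB13 (ENSG00000143545.7; chr1:153981617-153986358, minus strand), which delivers cargo to epithelial tight junctions and the leading edge, had 240.5, 409 and 559.8 CPM in BCLAF1-depleted libraries, against 259, 247 and 207 CPM in control libraries. Depleted library 1 was within the control range and libraries 2 and 3 were above it, so the groups overlapped. The log2 fold change of RAB13 was 0.76 ± 0.26 (edgeR quasi-likelihood adjusted p = 0.0414). Without depleted library 3, which also had the high mitochondrial share, it was 0.45 (adjusted p = 0.134), and without depleted library 2 it was 0.75 (adjusted p = 0.11). The part of the mitochondrial share in the result was not tested. Without control library 1, 2 or 3 the value was 0.82, 0.79 or 0.67 (adjusted p = 0.083, 0.0977 and 0.148). RAB13 also missed the threshold with library totals (0.49, adjusted p = 0.0767), with the length and GC trend removed (0.56, adjusted p = 0.1) and by limma-voom (0.69, adjusted p = 0.0582). A same-strand protein-coding gene of GENCODE shares 24.8% of RAB13's exon bases and was not analysed here.

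RAB8B (ENSG00000166128.11; chr15:63189469-63267782, plus strand), which with RAB8A carries cargo from the Golgi and recycling endosomes to the cell surface, had 6.76, 4.58 and 5.08 CPM in BCLAF1-depleted libraries, against 8.67, 10.3 and 9.04 CPM in control libraries. Every depleted library was below every control. RAB8B was 1.70-fold lower (log2 fold change -0.77 ± 0.17, edgeR quasi-likelihood adjusted p = 0.00841) and passed in all 18 alternatives. RAB8A, the more abundant paralogue, had 106, 89.6 and 116 CPM in BCLAF1-depleted libraries, against 124, 122 and 124 CPM in control libraries. Its groups did not overlap, but it did not pass (log2 fold change -0.25 ± 0.13, edgeR adjusted p = 0.15). RAB8A passed without depleted library 3 (-0.34, adjusted p = 0.0488), with scaling by library totals (-0.48, adjusted p = 0.0294) and with log2(FPKM + 1) (-0.54, adjusted p = 0.0162) and log2(FPKM + 0.1) (-0.55, adjusted p = 0.017).

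RAB10, which serves GLUT4 delivery and basolateral sorting, had 246, 195 and 223 CPM in BCLAF1-depleted libraries, against 194, 193 and 200.4 CPM in control libraries. These values overlap (log2 fold change 0.18 ± 0.13, edgeR quasi-likelihood adjusted p = 0.313). RAB11B, of the slow recycling pathway through the recycling endosome, had 67.9, 86.4 and 124 CPM in BCLAF1-depleted libraries, against 71.4, 69.1 and 68.8 CPM in control libraries. Depleted library 1 was below every control and libraries 2 and 3 were above them, and RAB11B did not pass (0.41 ± 0.19, edgeR adjusted p = 0.117), but did without depleted library 1 (0.57, adjusted p = 0.0101). RAB14, which links the Golgi and endosomes and was named after its values were seen, had 49.6, 34.6 and 36.3 CPM in BCLAF1-depleted libraries, against 49.9, 53.3 and 50.1 CPM in control libraries (-0.35 ± 0.15, edgeR adjusted p = 0.0901). It passed without depleted library 1 (-0.55, adjusted p = 0.00182), without a low-count filter (-0.39, adjusted p = 0.0452) and with log2(FPKM + 1) (-0.59, adjusted p = 0.0386). RAB11A, RAB12, RAB15 and RAB35 did not pass.

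**Figure D3:**
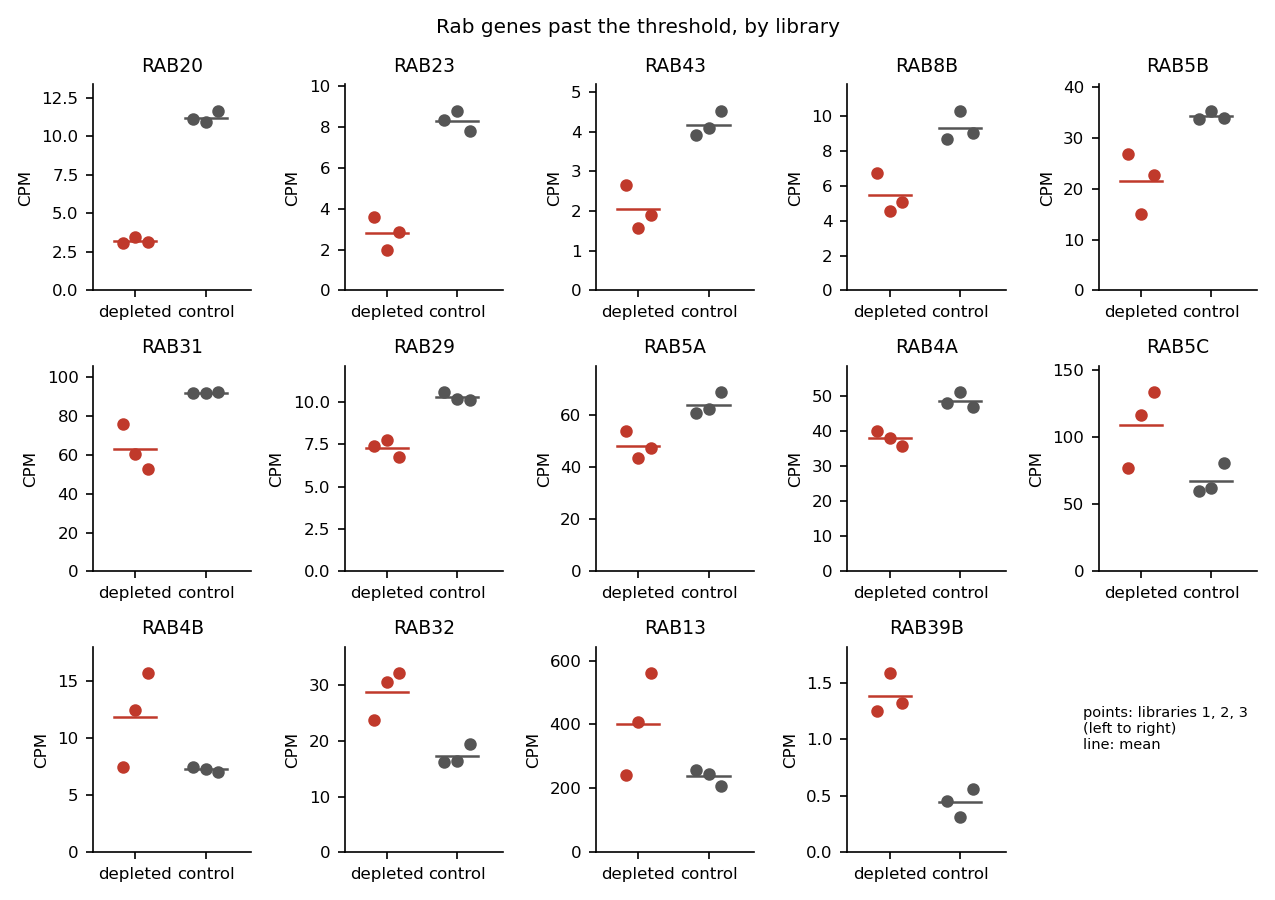
CPM of the 14 Rab genes past the threshold, with BCLAF1-depleted libraries in red to the left of control libraries in grey, a point per library in replicate order and a line at the mean. The control points are tightly grouped for most genes. BCLAF1-depleted library 1 is the depleted point nearest to the controls for every gene but RAB20 and RAB29.

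Late endosomal and lysosome-related Rabs included the largest rise. RAB39B (ENSG00000155961.4; chrX:155258241-155264589, minus strand), known for roles in neurons and in autophagy, had 1.25, 1.58 and 1.33 CPM in BCLAF1-depleted libraries, against 0.453, 0.316 and 0.561 CPM in control libraries. The groups were separate but at a low level, 3.11-fold higher after depletion (log2 fold change 1.63 ± 0.30, edgeR quasi-likelihood adjusted p = 0.00329). RAB39B passed in each of the 17 alternatives that could test it. RAB32 (ENSG00000118508.4; chr6:146543693-146554965, plus strand), which serves the biogenesis of lysosome-related organelles and sits at mitochondria too, had 23.8, 30.7 and 32.2 CPM in BCLAF1-depleted libraries, against 16.3, 16.4 and 19.5 CPM in control libraries. Every depleted library was above every control (log2 fold change 0.73 ± 0.15, edgeR adjusted p = 0.00515). With the length and GC trend removed the RAB32 value was 0.33 (adjusted p = 0.0566). Its paralogue RAB38 had under 0.7 CPM in every library and did not pass. HPS1 and HPS4, the subunits of the exchange factor for RAB32 and RAB38, did not pass (log2 fold changes -0.15 ± 0.15 and -0.22 ± 0.14, edgeR adjusted p = 0.451 and 0.237). HPS1 passed without BCLAF1-depleted library 1 (-0.32, adjusted p = 0.0428).

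RAB29 (ENSG00000117280.11; chr1:205767986-205775460, minus strand), which recruits the kinase LRRK2 to Golgi and lysosomal membranes, had 7.38, 7.74 and 6.78 CPM in BCLAF1-depleted libraries, against 10.6, 10.2 and 10.1 CPM in control libraries. The groups did not overlap (log2 fold change -0.49 ± 0.13, edgeR quasi-likelihood adjusted p = 0.016). Without control library 1, 2 or 3 the adjusted p was 0.0803, 0.0666 or 0.0557, at -0.48, -0.51 and -0.51. RAB34, tied to lysosome positioning and early steps of cilium formation, had 118, 129.8 and 99.1 CPM in BCLAF1-depleted libraries, against 109, 106 and 97.9 CPM in control libraries. These overlap (0.15 ± 0.13, edgeR adjusted p = 0.407). RAB9A, which returns receptors of lysosomal enzymes to the Golgi and was named after its values were seen, had 64.4, 57.0 and 57.1 CPM in BCLAF1-depleted libraries, against 49.2, 50.1 and 48.1 CPM in control libraries. Its groups were apart without passing the threshold (0.28 ± 0.11, edgeR adjusted p = 0.0759), and with log2(FPKM + 1) the value was -0.02. It passed with the filter of at least 5 CPM in 3 libraries (0.31, adjusted p = 0.0403).

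ER and Golgi Rabs stayed mostly below the threshold. RAB1A and RAB1B, which drive transport from the ER to the Golgi and early autophagosome formation, were both abundant. RAB1A had 172, 132 and 141 CPM in BCLAF1-depleted libraries, against 186.5, 180.3 and 167 CPM in control libraries (log2 fold change -0.26 ± 0.14, edgeR quasi-likelihood adjusted p = 0.156). Depleted library 1 lay among the controls, and without it RAB1A passed (-0.40, adjusted p = 0.0112). RAB1B had 85.4, 73.4 and 75.4 CPM in BCLAF1-depleted libraries, against 74.6, 75.2 and 81.6 CPM in control libraries, overlapping throughout (0.02 ± 0.12, edgeR adjusted p = 0.916). Its sign was negative in 10 of the 18 alternatives.

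RAB43 (ENSG00000172780.15; chr3:129087569-129122801, minus strand), which acts in Golgi organization, was the member of the group that fell. It had 2.65, 1.58 and 1.91 CPM in BCLAF1-depleted libraries, against 3.92, 4.10 and 4.51 CPM in control libraries. Every depleted library was below every control (log2 fold change -1.03 ± 0.21, edgeR quasi-likelihood adjusted p = 0.00569). The same-strand readthrough gene ISY1-RAB43 shares 79.3% of RAB43's exon bases and had 47.8, 53.3 and 92.1 CPM in BCLAF1-depleted libraries, against 48.6, 49.5 and 45.0 CPM in control libraries. That row did not pass (0.43 ± 0.22, edgeR adjusted p = 0.14), and the RAB43 row holds a small part of the reads of the locus, so its fall is uncertain as a change of RAB43 transcript. The other ER and Golgi genes that did not pass were RAB2A, RAB2B, RAB6A, RAB6B, RAB18, RAB30, RAB33B and RAB36. RAB6A, of retrograde transport at the Golgi and named after its values were seen, had 43.5, 26.4 and 55.4 CPM in BCLAF1-depleted libraries, against 54.4, 56.0 and 61.7 CPM in control libraries (-0.46 ± 0.22, edgeR adjusted p = 0.126). Depleted library 3 lay within the control range, and without it RAB6A passed (-0.72, adjusted p = 0.0284). RAB6A also passed with scaling by library totals (-0.71, adjusted p = 0.0261), without a low-count filter (-0.50, adjusted p = 0.00565) and with log2(FPKM + 1) (-0.75, adjusted p = 0.0247).

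Among the Rabs tied to cilia and other roles, RAB23 (ENSG00000112210.10; chr6:57186992-57222314, minus strand), an inhibitor of Hedgehog signalling in mouse, had 3.59, 1.96 and 2.87 CPM in BCLAF1-depleted libraries, against 8.35, 8.77 and 7.80 CPM in control libraries. The groups lay far apart, and RAB23 was 2.95-fold lower (log2 fold change -1.56 ± 0.21, edgeR quasi-likelihood adjusted p = 0.000687). RAB23 passed in all 18 alternatives. BAG2 on the opposite strand shares 57.7% of RAB23's exon bases and did not pass (0.12 ± 0.13, edgeR adjusted p = 0.482). The libraries were directional, but the labels do not say whether counting used strand, so reads of the 2 genes cannot be told apart with certainty. RAB28, which acts at cilia and was named after its values were seen, was the member nearest to the threshold on its other side. It had 7.44, 4.55 and 4.72 CPM in BCLAF1-depleted libraries, against 7.54, 8.28 and 8.69 CPM in control libraries (-0.55 ± 0.20, edgeR adjusted p = 0.0518). It passed in 11 of the 18 alternatives, among them without depleted library 1 (-0.84, adjusted p = 0.00134), with scaling by library totals (-0.75, adjusted p = 0.043), with the length and GC trend removed (-0.68, adjusted p = 0.0218) and by limma-voom (-0.58, adjusted p = 0.0378). GENCODE names 5 RAB28 pseudogenes. RAB40B and RAB40C, which serve ubiquitin ligase complexes, did not pass.

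Regulated secretion Rabs had no call. The 7 tested genes were RAB3A, RAB3B, RAB3D, RAB26, RAB27A, RAB27B and RAB37, with log2 fold changes from -0.17 to 0.65 and adjusted p-values from 0.0885 to 0.816 by edgeR's quasi-likelihood test. RAB26, which acts at secretory granules and was named after its values were seen, had 3.88, 3.84 and 3.05 CPM in BCLAF1-depleted libraries, against 2.72, 2.64 and 2.77 CPM in control libraries. Its groups did not overlap, but it did not pass (0.41 ± 0.17, edgeR adjusted p = 0.0885), and it did without depleted library 3 (0.51, adjusted p = 0.0422). RAB27B, which docks secretory granules and was named after its values were seen, did not pass (-0.15, edgeR adjusted p = 0.551) but did without depleted library 1 (-0.44, adjusted p = 0.00804), and was at 0.011 without depleted library 2.

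Over all members, the 35 tested genes that did not pass had log2 fold changes from -0.69 to 0.65 and adjusted p-values from 0.0518 to 0.916. The 11 genes not tested were RAB3C, RAB6C, RAB7B, RAB9B, RAB19, RAB25, RAB33A, RAB39A, RAB40A, RAB42 and RAB44. No library had more than 10 counts for any of them, the highest being RAB7B. At this depth 3 counts equal 0.0683 to 0.0898 CPM before TMM scaling, a floor that covers counting error only. RAB25, known as an epithelial relative of RAB11, had 0.06 CPM in BCLAF1-depleted library 3 and none in the other 5 libraries. RAB6C is an intronless relative of RAB6A, and reads of the 2 may be shared.

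Per gene length, RAB13 was the most abundant Rab in both groups, with 193 ± 53.4 FPKM in BCLAF1-depleted and 144 ± 15.7 FPKM in control libraries (SD, n = 3). RAB1A followed in control libraries, with 48.5 ± 13.0 FPKM in BCLAF1-depleted and 70.2 ± 3.53 FPKM in control libraries. RAB10 had 49.8 ± 11.3 and RAB34 44.6 ± 9.999 FPKM in BCLAF1-depleted libraries, against 53.5 ± 1.45 and 48.7 ± 2.38 FPKM in control libraries. In BCLAF1-depleted libraries RAB1A, RAB10, RAB34 and RAB5C (44.0 ± 6.62 FPKM, against 34.0 ± 6.08 FPKM in control libraries) lay within each other's spread, so their order is not resolved. Below them by mean in BCLAF1-depleted libraries came RAB8A (28.98 ± 4.55 in BCLAF1-depleted and 42.2 ± 0.618 FPKM in control libraries), RAB1B (31.0 ± 6.63 and 37.1 ± 2.10 FPKM) and RAB11B (33.9 ± 5.92 and 31.9 ± 0.558 FPKM). The order of RAB11B and RAB1B is not resolved either. In depleted library 3 RAB11B had 40.49 and RAB1A 39.88 FPKM, and in depleted library 1 RAB1B had 38.51 and RAB5C 36.35 FPKM. RAB20 had 1.69 ± 0.225 FPKM in BCLAF1-depleted and 7.13 ± 0.282 FPKM in control libraries, and RAB23 0.457 ± 0.182 and 1.63 ± 0.085 FPKM.

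**Figure D4:**
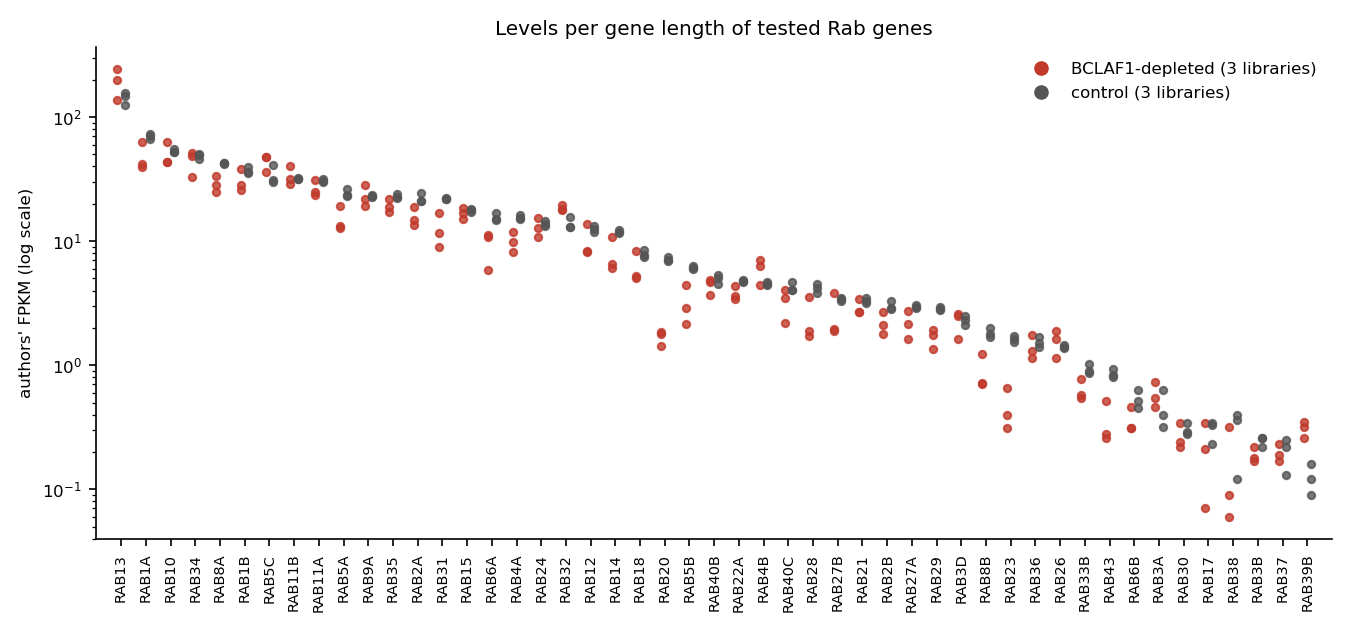
The authors' FPKM (log scale) of the 49 tested Rab genes, ordered by level, with BCLAF1-depleted libraries in red left of control libraries in grey. RAB13 stands above the rest in both groups, and RAB20 and RAB23 show the widest gaps on the lower side.

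All Rab genes together summed to 748, 700.4 and 723 FPKM in BCLAF1-depleted libraries, against 784, 780.02 and 777 FPKM in control libraries. RAB13 alone made up 18.27, 28.58 and 33.57% of this sum in BCLAF1-depleted libraries, against 19.95, 19.09 and 16.25% in control libraries. Depleted library 1 was within the control range and libraries 2 and 3 were above it. Without RAB13 the sum was 611, 500.2 and 480.3 FPKM in BCLAF1-depleted libraries, against 628, 631 and 651 FPKM in control libraries. With and without RAB13, every depleted library was below every control on this scale. The FPKM of all genes summed to 404528, 414114 and 468543 in BCLAF1-depleted libraries, against 393950, 394430 and 397618 in control libraries, the other way. FPKM carry no TMM factors, and with scaling by library totals the median of all tested genes moved to -0.21 on the log2 scale.

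Paralogue balance was compared in 14 pairs as the first gene's share of the pair's summed FPKM. In 5 pairs the groups did not overlap, each with an exact two-sided permutation p of 0.1, the smallest possible, and 0.28 after adjustment over the 14 pairs. Shares of other gene pairs were not computed, and CPM of single genes did not overlap for 51.9% of all tested genes. The count is thus no trait of Rab pairs, and RAB5A and RAB3B each enter several of them. The exon overlaps given for RAB4A, RAB4B and RAB5C touch their shares. RAB4A made up 62.6 ± 9.75% of the RAB4 pair in BCLAF1-depleted and 77.3 ± 0.739% in control libraries. RAB5A made up 25.9 ± 7.56% of the RAB5A and RAB5C pair in BCLAF1-depleted and 41.9 ± 2.45% in control libraries. RAB22A made up 24.0 ± 3.48% of its pair with RAB31 in BCLAF1-depleted and 17.9 ± 0.205% in control libraries. The other two were RAB1A with RAB1B (60.8 ± 1.34% in BCLAF1-depleted and 65.4 ± 2.402% in control libraries) and RAB8A with RAB8B (97.1 ± 0.559% and 95.9 ± 0.395%). Pairs whose groups overlapped included RAB11A with RAB11B (44.0 ± 7.46% in BCLAF1-depleted and 49.2 ± 0.917% in control libraries) and RAB27A with RAB27B (46.9 ± 5.999% and 46.6 ± 1.24%).

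Exon length and base composition of the called Rab genes are given as a description. Genes called higher had a median exon length of 2761 bases and a median GC content of 53.5%, those called lower 4926 bases and 43.9%, and those not past the threshold 4417 bases and 45.5%. The ranges overlapped: exon lengths ran from 1217 to 3931 bases in genes called higher and from 1518 to 6588 bases in those called lower, and GC contents from 43.6 to 55.8% and from 36.2 to 61.8%. Across the 49 tested Rab genes, Spearman's rho of the log2 fold change was -0.224 with exon length and 0.31 with GC content, given as a description since the genes share the same 6 libraries. With the length and GC trend of all genes removed, 2 Rab genes were higher and 10 lower, while 33.5% of all tested genes passed. RAB5C, RAB32, RAB13 and RAB4B then missed the threshold, so that RAB39B and RAB21 were the 2 higher genes, and RAB28 joined the 9 lower ones.

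In the lists of genes that act on Rabs, more genes were called lower than higher. The lists were chosen with earlier results of these data known. The counts therefore describe the listed genes and are no test of Rab regulators as a group. Of 151 genes in 5 lists (delivery and prenylation, GEFs, TRAPP subunits, GAPs and effectors), 146 were tested, 11 were higher and 50 lower. The share called was 41.8%, beside 35.8% of all tested genes (17.8% higher and 18.0% lower). The median log2 fold change was -0.25, beside 0.02 for all tested genes. Their median exon length was 7420.5 bases, longer than that of the Rab genes (4180 bases) and of all tested genes (4525 bases). With the length and GC trend removed, 16 were higher and 40 lower, while 16.1% of all tested genes were higher and 17.4% lower. Without control library 1, 2 or 3 the counts were 5, 6 and 6 higher and 28, 28 and 31 lower. Of all tested genes, 18.1, 18.1 and 19.7% then passed. Without BCLAF1-depleted library 1 or 2 the regulators numbered 17 and 7 higher and 67 and 37 lower. In these fits 48.8 and 25.0% of all tested genes passed. With scaling by library totals 4 regulators were higher and 61 lower, beside 8.07% higher and 23.0% lower of all tested genes.

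Delivery factors escort newly made Rabs to the enzyme that attaches their lipid anchor. Of 8 tested genes 1 was higher and 1 lower, beside 17.8% higher and 18.0% lower of all tested genes. CHM (REP1), the escort protein lost in choroideremia, had 5.84, 2.55 and 4.10 CPM in BCLAF1-depleted libraries, against 9.55, 8.95 and 9.56 CPM in control libraries. Every depleted library was below every control (log2 fold change -1.17 ± 0.24, edgeR quasi-likelihood adjusted p = 0.00622). Its paralogue CHML was more abundant, with means of 10.1 FPKM in BCLAF1-depleted and 16.7 FPKM in control libraries. CHM had means of 0.427 and 1.14 FPKM. CHML groups did not overlap, but CHML did not pass (-0.43 ± 0.17, edgeR adjusted p = 0.0697). RABGGTB, the catalytic subunit of the geranylgeranyl transferase, had 99.1, 132 and 95.3 CPM in BCLAF1-depleted libraries, against 78.2, 77.0 and 56.6 CPM in control libraries (0.62 ± 0.17, edgeR adjusted p = 0.0191). It missed the threshold without BCLAF1-depleted library 2 (0.46, adjusted p = 0.0654), without control library 3 (0.48, adjusted p = 0.0897) and with library totals (0.40, adjusted p = 0.134).

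Of 34 tested GEFs, 2 were higher and 12 lower, beside 17.8% higher and 18.0% lower of all tested genes. RIN1, which activates RAB5 downstream of Ras, had 21.4, 41.9 and 34.6 CPM in BCLAF1-depleted libraries, against 13.0, 12.8 and 14.6 CPM in control libraries. All depleted libraries were above the controls (log2 fold change 1.28 ± 0.21, edgeR quasi-likelihood adjusted p = 0.00223). The largest falls were those of SBF2 (-1.24 ± 0.17, edgeR adjusted p = 0.000947) and RIC1 (-1.22 ± 0.24, edgeR adjusted p = 0.00474), part of a RAB6 exchange factor. DENND5B followed (-1.19 ± 0.12, edgeR adjusted p = 0.000113). TRAPP complexes activate RAB1 and RAB11. Of 14 tested subunits 3 were higher and 3 lower, among them TRAPPC6A at 0.97 ± 0.21 (edgeR adjusted p = 0.00674) and TRAPPC10, TRAPPC8 and TRAPPC11 at -1.02 ± 0.25, -0.999 ± 0.24 and -0.96 ± 0.21 (edgeR adjusted p = 0.0117, 0.0107 and 0.00685). TRAPPC10 missed the threshold without BCLAF1-depleted library 2 (-0.84, adjusted p = 0.0503).

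Of 38 tested GAPs, 3 were higher and 14 lower, where 17.8% of all tested genes were higher and 18.0% lower. TBC1D2, a GAP of endosomal Rabs, had 17.3, 14.7 and 15.1 CPM in BCLAF1-depleted libraries, against 50.5, 50.0 and 55.3 CPM in control libraries. The groups lay far apart (log2 fold change -1.73 ± 0.12, edgeR quasi-likelihood adjusted p = 1.94e-05). TBC1D14, which binds recycling endosomes and restrains autophagosome formation, fell by 1.12 on the log2 scale (SE 0.18, edgeR adjusted p = 0.0021). USP6NL, a GAP for RAB5, fell by 0.86 (SE 0.20, edgeR adjusted p = 0.0092). TBC1D19 had a log2 fold change of -1.21 ± 0.29 (edgeR adjusted p = 0.0105) at under 1 CPM in every library, and missed the threshold without control library 2 (-1.14, adjusted p = 0.0575).

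Of 52 tested effectors, 2 were higher and 20 lower, set beside the 17.8% higher and 18.0% lower of all tested genes. UNC13D, which primes secretory lysosomes and binds RAB27, had 17.1, 15.2 and 13.2 CPM in BCLAF1-depleted libraries, against 37.8, 37.4 and 40.4 CPM in control libraries (log2 fold change -1.34 ± 0.13, edgeR quasi-likelihood adjusted p = 0.000107). RAB11FIP1, an adaptor of RAB11 on recycling endosomes, had 28.3, 19.8 and 21.6 CPM in BCLAF1-depleted libraries, against 50.9, 48.0 and 49.9 CPM in control libraries (-1.09 ± 0.15, edgeR adjusted p = 0.000687). In both genes every depleted library was below every control. RIMS2, a scaffold that binds RAB3 at exocytic sites, had a log2 fold change of 1.60 ± 0.29 (edgeR adjusted p = 0.00356) at a mean of 1.40 CPM in BCLAF1-depleted and 0.462 CPM in control libraries.

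**Figure D5:**
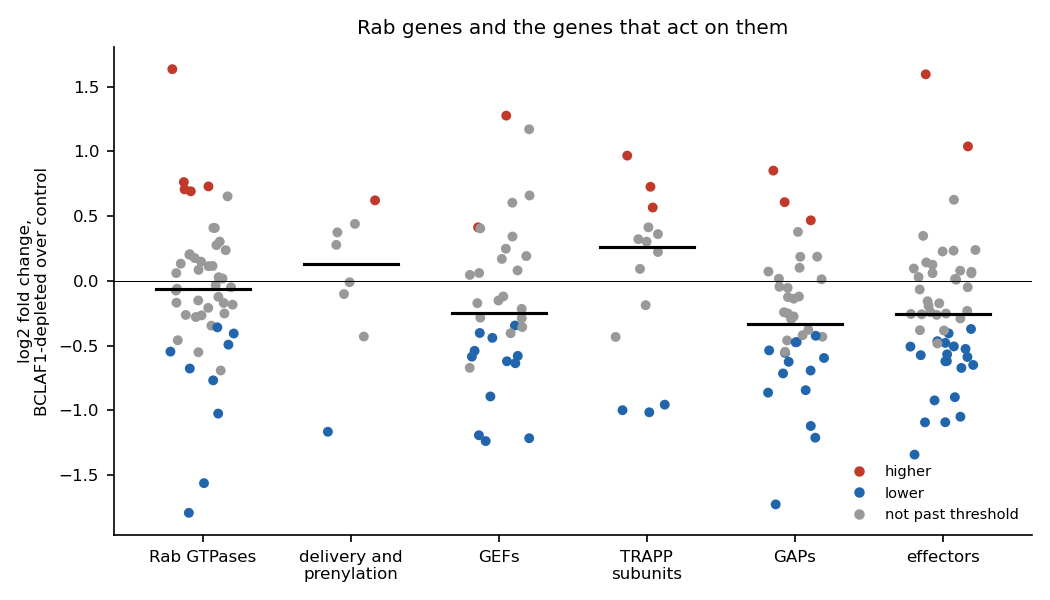
Log2 fold change of BCLAF1-depleted over control for the tested Rab genes and the 5 lists of genes that act on them, a point per gene, with a black line at each median; red marks higher and blue lower at an adjusted p under 0.05. The medians of GEFs, GAPs and effectors lie at -0.25, -0.34 and -0.26, and those of delivery factors and TRAPP subunits at 0.13 and 0.26.

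Genes known to act on or bind RAB5 were set beside its paralogues, named after their values were seen. Among its exchange factors, RABGEF1 (log2 fold change -0.44 ± 0.12, edgeR quasi-likelihood adjusted p = 0.0213) and GAPVD1 (-0.35 ± 0.11, edgeR adjusted p = 0.0396) were lower. RIN3 was higher (0.41 ± 0.13, edgeR adjusted p = 0.0308), as RIN1 was, and RIN2 did not pass (0.06 ± 0.12, edgeR adjusted p = 0.725). These calls were near the threshold: RABGEF1, GAPVD1 and RIN3 each missed it without any 1 control library (adjusted p = 0.071 to 0.152) and without BCLAF1-depleted library 2 (adjusted p = 0.0503 to 0.0727). GAPVD1 and RIN3 also missed it without BCLAF1-depleted library 3 (adjusted p = 0.0701 and 0.0689), and RIN3 with scaling by library totals (0.18, adjusted p = 0.437). GAPVD1 missed it with the length and GC trend removed (-0.10, adjusted p = 0.45).

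Among the effectors of RAB5, APPL2, an adaptor on early signalling endosomes, had 12.3, 7.71 and 9.46 CPM in BCLAF1-depleted libraries, against 23.2, 21.8 and 18.0 CPM in control libraries. It was lower in every depleted library (log2 fold change -1.09 ± 0.18, edgeR quasi-likelihood adjusted p = 0.00219). RABEP1, which couples RAB4 and RAB5, had 84.9, 68.3 and 77.0 CPM in BCLAF1-depleted libraries, against 104, 100.2 and 93.6 CPM in control libraries (-0.37 ± 0.12, edgeR adjusted p = 0.041). RABEP1 missed the threshold with the length and GC trend removed (-0.18, adjusted p = 0.21), without any 1 control library (-0.34, -0.37 and -0.42, adjusted p = 0.168, 0.141 and 0.0849) and without BCLAF1-depleted library 2 (-0.30, adjusted p = 0.0908) or 3 (-0.38, adjusted p = 0.0532). EEA1, the tether of early endosome fusion, had 20.8, 26.4 and 30.0 CPM in BCLAF1-depleted libraries, against 21.2, 19.2 and 20.3 CPM in control libraries (0.35 ± 0.15, edgeR adjusted p = 0.086). It passed without depleted library 1 (0.46, adjusted p = 0.00624) and with the length and GC trend removed (0.59, adjusted p = 0.0201). APPL1, RBSN and ANKFY1 did not pass (log2 fold changes 0.12 ± 0.15, -0.19 ± 0.13 and -0.38 ± 0.17, edgeR adjusted p = 0.528, 0.272 and 0.0964), though ANKFY1 did without depleted library 1 (-0.57, adjusted p = 0.0104).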

How the data were processed

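The deposited table holds whole-number read counts per gene, and the authors also deposited FPKM, which divide by gene length and library size. The submitters' processing notes name GRCh38, TopHat2, bcl2fastq and edgeR without versions or roles; the counting tool and how it treated strand were not given in the sources used here. Per the labels' protocols, RNA was selected with oligo(dT), so levels depend on intact transcripts. For tests, edgeR 4.0.16 (R 4.3.3) was run on the counts (quasi-likelihood, group as the only term, TMM, filterByExpr with a minimum count of 10), with Benjamini-Hochberg adjustment over 15907 genes and a threshold of 0.05. SEs were derived as log2 fold change over the root of the F value. CPM are TMM-scaled. The script was checked on simulated counts. Lengths, GC content and positions came from GENCODE release 29 (60 of 60 members matched), and whether that release lies behind the counts is not given. Fits without a library leave 1 arm with 2 libraries and share its spread with the other arm.

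Alternatives were DESeq2 1.42.0 size factors and Wald test, library totals, no filter or 5 CPM in 3 libraries, a replicate block, leaving out each library, removal of a smooth length and GC trend (mgcv 1.9.3), limma-voom (limma 3.58.1) and limma-trend on log2 of the authors' FPKM with pseudocounts of 1 and 0.1. An alternative chosen after seeing the data removed the trend without BCLAF1-depleted library 1. Genes named by rule were BCLAF1, all members past the threshold and the 6 most abundant members not past it. The rule also took up to 4 called genes per list with the largest change. Other genes were named outside it, and some are said to be named after their values were seen. CHML, HPS1, HPS4 and RAB22A carry no such mark and were not picked by the rule either. Members and lists were chosen with earlier results of these data known. Single results of a few genes are left out of the text.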

Additional observations from a re-analysis of the deposited data

How the results depend on the processing

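RAB20, RAB23, RAB8B and BCLAF1 passed in all 18 alternatives, RAB43 and RAB39B in the 17 that tested them. RAB32 passed in 16, RAB5B, RAB29 and RAB4A in 15, RAB31 and RAB5A in 14, RAB5C in 10, RAB4B in 8 and RAB13 in 7. Of the members that had not passed, RAB28 passed in 11, RAB6A in 6, RAB14 in 5, RAB1A and RAB8A in 4, RAB21 in 3, RAB2A in 2, and RAB1B, RAB9A, RAB11B, RAB12, RAB22A, RAB26, RAB27B and RAB38 in 1. Rab genes higher numbered 5, or 2 with library totals, with the length and GC trend removed and with both FPKM scales, 3 by limma-voom, and 2 to 6 with a library left out. Of all tested genes, 8.07% were higher with library totals, 16.1% with the trend removed, 7.11 and 7.08% with FPKM and 17.0% by limma-voom. Rab genes lower numbered 9, or 15 with both FPKM scales (beside 28.0 and 27.5% of all tested genes lower, in place of 18.0%). They also numbered 15 with the trend removed without BCLAF1-depleted library 1 (beside 24.1% of all tested genes lower), and 4 to 13 with a library left out. The Rab median was -0.29 with library totals, -0.24 with log2(FPKM + 1), -0.35 with log2(FPKM + 0.1) and -0.078 to 0.011 with a library left out. Regulators higher numbered 11, or 4 with library totals, 3 with log2(FPKM + 1) and 4 with log2(FPKM + 0.1). Beside these, 8.07, 7.11 and 7.08% of all tested genes were higher, in place of 17.8%. Regulators higher numbered 23 with the trend removed without BCLAF1-depleted library 1 (beside 20.3% of all tested genes higher), and 5 to 17 with a library left out. Regulators lower numbered 50, or 28 to 67 with a library left out. Over these fits 8.51 to 23.0% of all tested genes were higher and 9.53 to 25.8% lower. Pairs without overlap numbered 5, or 6 to 9 with a library left out, where fewer libraries overlap more rarely. Elsewhere the cause was not tested.

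Signs of log2 fold changes turned only in genes that had not passed. With library totals, log2(FPKM + 1) and log2(FPKM + 0.1), RAB10 was at -0.043, -0.12 and -0.12, RAB34 at -0.064, -0.15 and -0.15, RAB1B at -0.20, -0.27 and -0.28, RIN2 at -0.16, -0.20 and -0.24, RAB21 at -0.11, -0.14 and -0.17, and APPL1 at -0.13, -0.16 and -0.19. RAB9A was at -0.0195 and -0.021 on the FPKM scales. RAB27B ranged from -0.44 to 0.011 with a library left out, and was at 0.038 with the trend removed and 0.018 also with the replicate block. With the trend removed, also with the replicate block, and without BCLAF1-depleted library 1, RAB34 was at -0.0027, -0.0104 and -0.0943 and RAB1B at -0.27, -0.29 and -0.46 (adjusted p = 0.00473 for the last, by edgeR). RBSN was at 0.0244 under the last. RAB1B was at -0.023 without a filter. With a library left out, RAB1B ranged from -0.0718 to 0.0607, RIN2 from -0.0217 to 0.151 and APPL1 from -0.0296 to 0.235. The RAB27A share of its pair, 0.29 points higher in BCLAF1-depleted libraries, ranged from -2.99 to 2.89 points with a library left out.

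Deviations of same-numbered libraries correlated at 0.036, 0.0466 and 0.119, so the numbers were not taken as pairs, although each library correlated best with its own number. With the replicate block 5 Rab genes were higher and 11 lower, while 37.8% of all tested genes passed (18.1% higher and 19.6% lower). RABEP1 and GAPVD1 then missed the threshold (edgeR adjusted p = 0.0504 and 0.0519). RAB6A (-0.52, adjusted p = 0.0242), RAB28 (-0.58, adjusted p = 0.0277) and ANKFY1 (-0.41, adjusted p = 0.0406) passed. Of the 14 paralogue pairs, 9 moved one way in all 3 same-numbered differences. That count was not tested, and 3 differences can share a sign without any pairing. Counts of 10 or fewer per library left 11 Rab genes untested.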
